A study of Mus musculus with 6 samples.

Results

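Sister chromatids are held together by cohesin from their replication until anaphase, and 7 genes that set up, guard and end this hold are described here: Esco1, Esco2, Hdac8, Espl1, Pttg1, Sgo1 and Cdca5. They were chosen by name, and all 7 were found, on 8 probe sets of the 35556 of the array, as 7 of the 19938 genes tested. RNA came from mouse embryonic stem (ES) cells, female and of mixed C57BL/129 background, which were derived and grown in 2i with LIF in serum-free N2B27 medium on laminin. One genotype was Scc1 lox/lox ERT2-Cre, in which both alleles of Scc1 (the older name of Rad21, the subunit that closes the cohesin ring) can be cut out by Cre. The other was Scc1 wt/wt ERT2-Cre, in which both alleles are wild type. Each genotype had 3 samples, named biological replicates in the design text, and each sample had 1 Affymetrix Mouse Gene 1.0 ST array. All 6 samples carried ERT2-Cre, a recombinase that enters the nucleus once 4-hydroxytamoxifen (4-OHT) binds it, and all had 4-OHT for 24 h, at 80 nM in the sample labels (the design text has the unit mM). No sample without 4-OHT was analysed here, and the labels do not say whether a genotype is 1 line or several, so loss of Rad21 and older differences between the lines cannot be told apart.

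Cohesin loaded before replication becomes cohesive when the acetyltransferases Esco1 and Esco2 acetylate its subunit Smc3. Acetylated cohesin binds sororin, the product of Cdca5, which blocks the release factor Wapl, and Hdac8 removes the acetyl groups once cohesin has left the chromosomes, so that it can be used again. In mitosis shugoshin, from Sgo1, brings the phosphatase PP2A to centromeres and guards the cohesin there. Securin, from Pttg1, holds the protease separase, from Espl1, inactive until the anaphase-promoting complex (APC/C) destroys securin, whereupon separase cuts Rad21. ES cells divide fast and spend much of their cycle in S phase, when cohesion is made. Messages of several of these genes peak late in the cell cycle, and in whole cultures a smaller share of cells in that phase and less RNA per cell cannot be told apart.

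A short motif, TTTGAA, known as the cell cycle genes homology region (CHR), stands near the start of many genes that peak in G2 and mitosis, and it often follows CCAAT boxes. The promoter table of RefSeq (GRCm38.p6, 250 bases before to 50 after each start) held windows for 5 of the 7 genes, Espl1, Cdca5, Sgo1, Pttg1 and Hdac8. Searched on both strands, TTTGAA lay in the last 50 bases before the start of Espl1 and Cdca5, which encode separase and sororin, and in 2.63% of all 32851 windows. These stretches are shown as the sequence context of the genes of separase and sororin, whose levels are compared between the genotypes. Capitals mark TTTGAA and, in Espl1, the CCAAT box, which reads ATTGG on this strand.
Espl1, chr15:102296247-102296273, plus strand, from 46 to 20 bases before the start: tgATTGGtcactagggataTTTGAAag
Cdca5, chr19:6085073-6085096, plus strand, from 24 to 1 bases before the start: cgggcaaTTTGAAcgTTTGAAgca
Cdca5 held TTTGAA at 2 places, 17 and 9 bases before its start, and Espl1 at 1 place, 27 bases before. In Hdac8 the letters stood farther away, 129 bases before the start and, on the other strand, 244 bases before it, and Sgo1 had the variant TTCGAA 27 bases after its start. CCAAT also lay in Hdac8, 172 bases before the start and, on the other strand, 169 bases before it, and in Sgo1, 2 bases after its start. Over the whole window of 300 bases, 17.9% of all windows held TTTGAA, 1.56% TTCGAA and 37.4% CCAAT. Of the 5 windows of the cohesion genes, 3 held TTTGAA, 1 TTCGAA and 3 CCAAT. The window of Pttg1 held none of these letters. The starts used lie inside the annotated genes by 2016 bases for Sgo1, 1482 for Pttg1, 223 for Hdac8 and 39 for Espl1, and other starts of these genes were not searched.

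The values are log2 intensities after RMA, a summary of many probes into 1 value per probe set, on which the median of all values was 4.90. Rad21 stood at 6.08, 6.06 and 6.14 in lox/lox cells, against 10.05, 9.99 and 10.01 in wt/wt cells, which checks the genotype labels. All 7 markers of ES cells were above the median of all values. Every lox/lox array lay below every wt/wt array for each of the 7 (median log2 change -0.27), as for 12.7% of all genes. Of the 7, 6 had an unadjusted p under 0.05, as had 18.0% of all genes. In limma 3 (Nanog, Sox2 and Esrrb) were lower at an adjusted p under 0.05, as were 3.61% of all genes. These shares over all genes include dim ones and were not matched for the brightness of the markers. With dim genes filtered out, 820 of 11400 genes were called lower. Of 8 fibroblast markers, which would show feeder cells, 0 passed in limma and 1 had an unadjusted p under 0.05. Their mean log2 level lay between 4.87 and 5.06 on lox/lox arrays and between 4.80 and 5.07 on wt/wt arrays. Of 6 markers of primitive endoderm 0 passed in limma, with 0 at an unadjusted p under 0.05, and of 6 of trophectoderm 1 was lower, Gata3. Over all genes, lox/lox replicate 3 and wt/wt replicate 2 stood apart from the other arrays of their genotype (loadings of -0.54 and -0.58 on the first component of the deviations within genotypes, against 0.10 to 0.47 for the others). Results for the cohesion genes are given with and without these arrays, whose part in them was otherwise not tested.

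One of the 7 genes passed the test. It was Pttg1, the securin gene, whose level in lox/lox cells was 1.37-fold lower, while the gene of its partner separase, Espl1, had a log2 change near 0. Hdac8 was lower on every lox/lox array and Esco2 and Sgo1 were higher on every lox/lox array, but none of the 3 passed. At an adjusted p under 0.05 in limma, 6.16% of all genes were called, 3.61% lower and 2.55% higher in lox/lox cells, so 1 of 7 stands close to the background. Arrays of the genotypes did not overlap for 4 of the 7 genes, 2 lower and 2 higher, and for 22.8% of all genes, 12.7% lower and 10.1% higher. Among the 7, 3 had an unadjusted p under 0.05, as had 18.0% of all genes, and the median log2 change was 0.007 for the 7 and -0.008 for all genes.

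**Figure D1:**
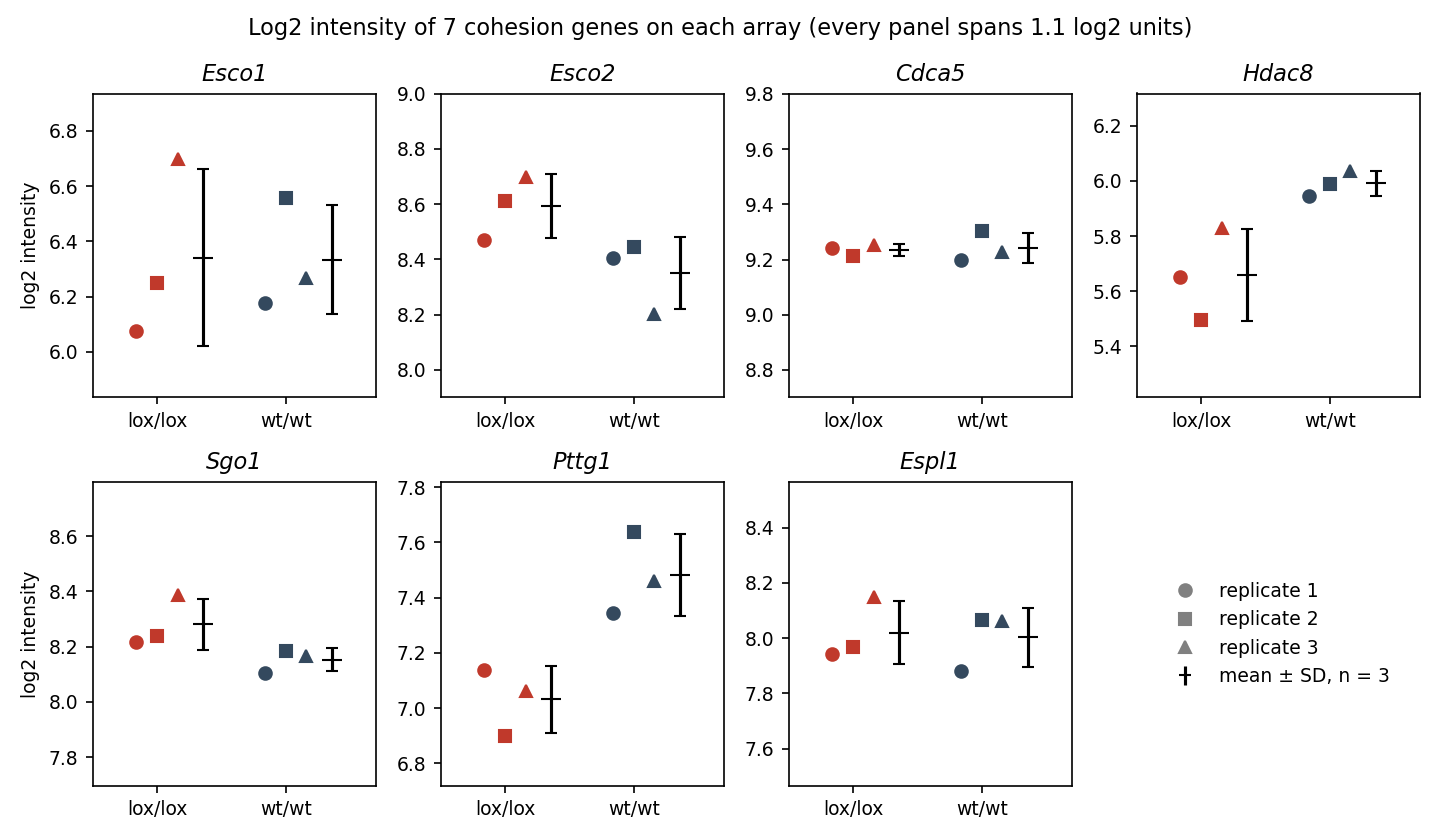
Log2 intensity (vertical axis) of each of the 7 cohesion genes on the 3 lox/lox arrays (red, left) and the 3 wt/wt arrays (dark, right), with marker shapes for replicate numbers and black bars for mean ± SD. Pttg1 and Hdac8 lie lower on all lox/lox arrays, Esco2 and Sgo1 higher, and the genotypes overlap for Esco1, Cdca5 and Espl1.

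The acetyltransferases act first, when cohesion is made. Esco2, whose product acetylates Smc3 in S phase at the replication fork, had log2 intensities of 8.47, 8.61 and 8.70 in lox/lox cells, against 8.41, 8.45 and 8.20 in wt/wt cells. Every lox/lox array lay above every wt/wt array, by a narrow margin between lox/lox replicate 1 and wt/wt replicate 2. The log2 change was 0.24 (SE 0.09, 95% interval 0.03 to 0.45), and its adjusted p in limma was 0.198. Without both arrays that stood apart the change was 0.24 with an adjusted p of 0.303. 

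Esco1, which acetylates Smc3 throughout the cell cycle and also acts outside S phase, had 2 probe sets. The brighter had 6.07, 6.25 and 6.70 in lox/lox cells, against 6.18, 6.56 and 6.27 in wt/wt cells. The highest array of each genotype was the one that stood apart, and the genotypes overlapped widely. Its log2 change was 0.007 (SE 0.15, 95% interval -0.33 to 0.35, adjusted p = 0.990 in limma). The second probe set of Esco1 gave 5.78, 5.93 and 6.27 in lox/lox cells, against 6.10, 6.51 and 5.45 in wt/wt cells. Here wt/wt replicate 3 was lowest of all, and the log2 change was -0.027 (SE 0.23, adjusted p = 0.973 in the fit over all probe sets). The SD within genotypes of the brighter Esco1 probe set was larger than that of 98.3% of genes, which makes its interval the widest of the 7.

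Cdca5, the sororin gene, was the steadiest of the group. Its log2 intensities were 9.24, 9.21 and 9.25 in lox/lox cells, against 9.20, 9.30 and 9.23 in wt/wt cells. The 6 arrays spanned 0.105 on the log2 scale, and the lox/lox values fell inside the wt/wt range. The log2 change of -0.008 had a 95% interval of -0.17 to 0.15 (adjusted p = 0.974 in limma). A change smaller than the ends of that interval could not be told from 0 with this number of arrays.

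Hdac8, the X-linked gene of the Smc3 deacetylase, had 5.65, 5.50 and 5.83 in lox/lox cells, against 5.95, 5.99 and 6.04 in wt/wt cells. All lox/lox arrays were below all wt/wt arrays, and lox/lox replicate 3 came closest to them. Its log2 change was -0.33 (SE 0.09, 95% interval -0.54 to -0.12), with an adjusted p of 0.0728 in limma. The adjusted p fell to 0.0312 without lox/lox replicate 3, at a log2 change of -0.42, and was between 0.101 and 0.260 without any other array. Without both arrays that stood apart it was 0.0652. The 739 measured genes of the X chromosome had a median log2 change of -0.013, with 26 called higher and 33 called lower. Their called share was 7.98%, against 6.16% of all genes. A link between the change of Hdac8 and its chromosome was not tested.

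Sgo1, the shugoshin gene of mitotic centromeres, had 8.22, 8.24 and 8.39 in lox/lox cells, against 8.11, 8.19 and 8.17 in wt/wt cells. The genotypes did not overlap, but the highest wt/wt array and the lowest lox/lox array were nearly level. Its log2 change of 0.13 (SE 0.08, 95% interval -0.05 to 0.30) did not pass, with an adjusted p of 0.472 in limma. Leaving out each array in turn gave changes from 0.07 to 0.16 and no adjusted p under 0.498. Without both arrays that stood apart the change was 0.09 with an adjusted p of 0.644.

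In the anaphase switch, Pttg1, the securin gene, had 7.14, 6.90 and 7.06 in lox/lox cells, against 7.34, 7.64 and 7.46 in wt/wt cells. Its lox/lox arrays were all below its wt/wt arrays, with lox/lox replicate 2 lowest and wt/wt replicate 2 highest. The log2 change was -0.45 (SE 0.10, 95% interval -0.67 to -0.23, adjusted p = 0.0244 in limma), larger in size than that of 95.8% of genes. The call was not kept in every fit without 1 array. It was lost without lox/lox replicate 2 (adjusted p = 0.116) or 3 (0.0605), and without wt/wt replicate 2 (0.0775) or 3 (0.0806). It held without lox/lox replicate 1 (0.0339) or wt/wt replicate 1 (0.0171). Without lox/lox replicate 3 or wt/wt replicate 3 the change was -0.46. Calls among all genes then numbered 1028 and 661, against 1228 with all arrays. The change of Pttg1 stayed between -0.52 and -0.37 in all 6 fits. Without both arrays that stood apart it was -0.38 with an adjusted p of 0.120.

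**Figure D2:**
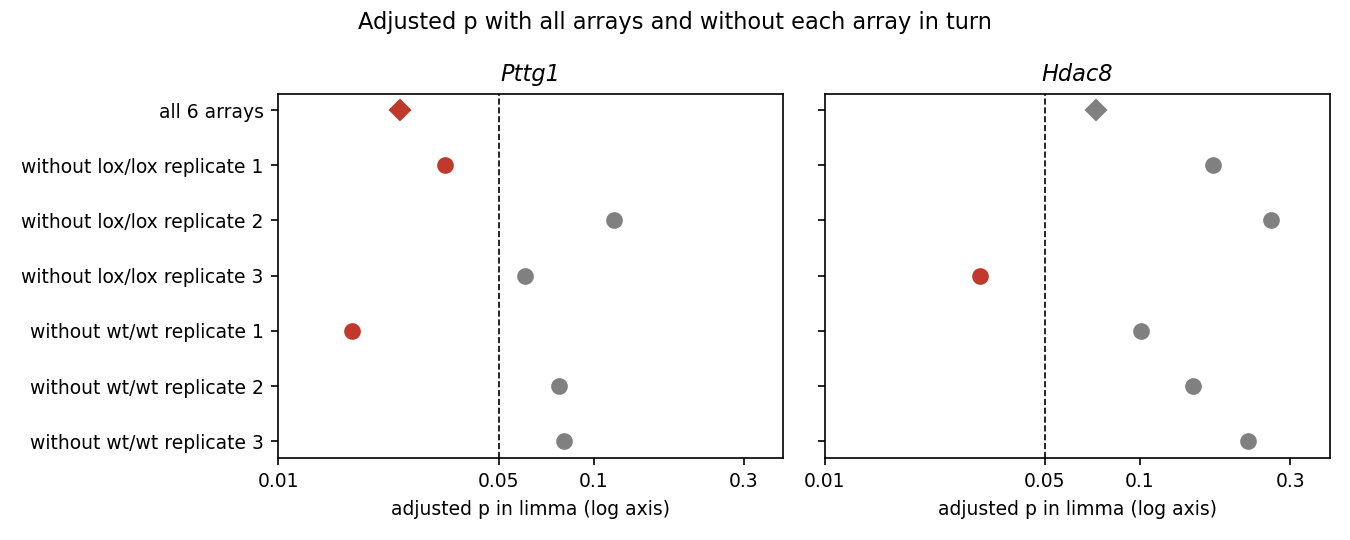
Adjusted p in limma (horizontal log axis, dashed line at 0.05) of Pttg1 and Hdac8 with all 6 arrays (diamond) and without each array in turn (circles), red where it is under 0.05. Pttg1 stays under 0.05 in 2 of the 6 fits, and Hdac8 falls under it in 1.

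Espl1, the separase gene, had 7.94, 7.97 and 8.15 in lox/lox cells, against 7.88, 8.07 and 8.06 in wt/wt cells. The genotypes overlapped, with lox/lox replicate 3 highest and wt/wt replicate 1 lowest. Its log2 change was 0.02 (SE 0.09, 95% interval -0.18 to 0.22, adjusted p = 0.955 in limma). Espl1 lies on chromosome 15, as does the deleted gene Rad21, with 553 measured genes between them, and the 748 measured genes of that chromosome had a median log2 change of 0.004.

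**Figure D3:**
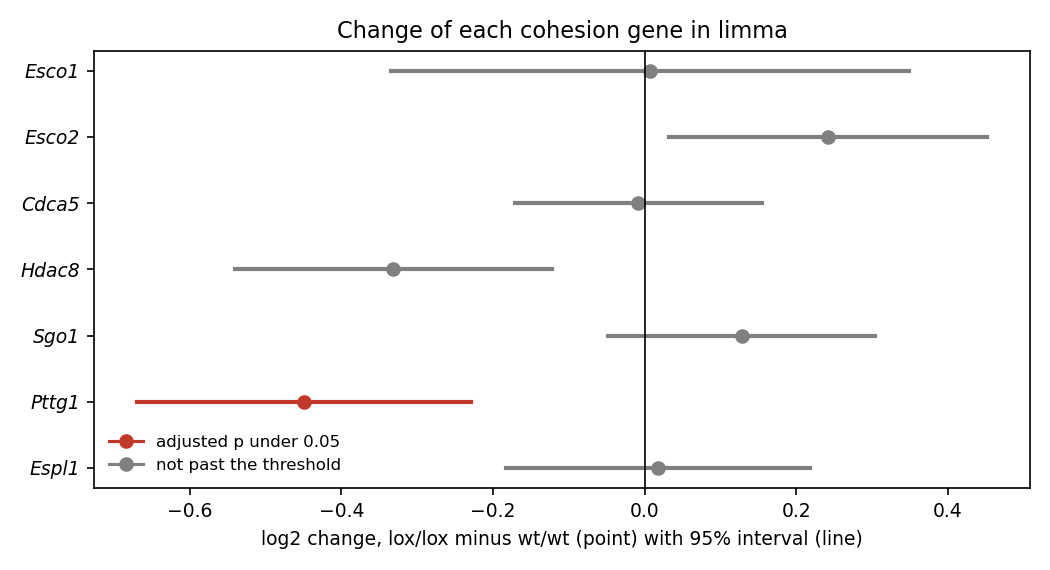
Log2 change in lox/lox minus wt/wt cells (point) with its 95% interval (line) for each of the 7 genes, red where the adjusted p in limma was under 0.05. Pttg1 at -0.45 is the 1 gene past the threshold, and the intervals of Hdac8 (below 0) and Esco2 (above 0) also leave out 0 before adjustment.

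Pairs of genes with opposed or alike roles were compared on each array by the difference of their log2 values, centred over the 6 arrays. Pttg1 minus Espl1, inhibitor and protease, was -0.05, -0.32 and -0.33 in lox/lox cells, against 0.22, 0.33 and 0.15 in wt/wt cells. The genotypes did not overlap, and the difference between them was -0.47 on the log2 scale. The exact two-sided permutation test gave p = 0.1, the smallest that 3 arrays against 3 allow, and 0.2 after adjustment over the 3 pairs compared. Esco2 minus Esco1 was 0.26, 0.23 and -0.13 in lox/lox cells, against 0.09, -0.25 and -0.20 in wt/wt cells. These overlapped, with a difference of 0.24 between genotypes (exact permutation p = 0.2, adjusted 0.2). Esco1 minus Hdac8, acetyltransferase and deacetylase, was -0.09, 0.24 and 0.36 in lox/lox cells, against -0.28, 0.05 and -0.28 in wt/wt cells. These overlapped as well, with a difference of 0.34 (exact permutation p = 0.2, adjusted 0.2). No pair passed, and a design of this size cannot pass at 0.05 in this test.

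**Figure D4:**
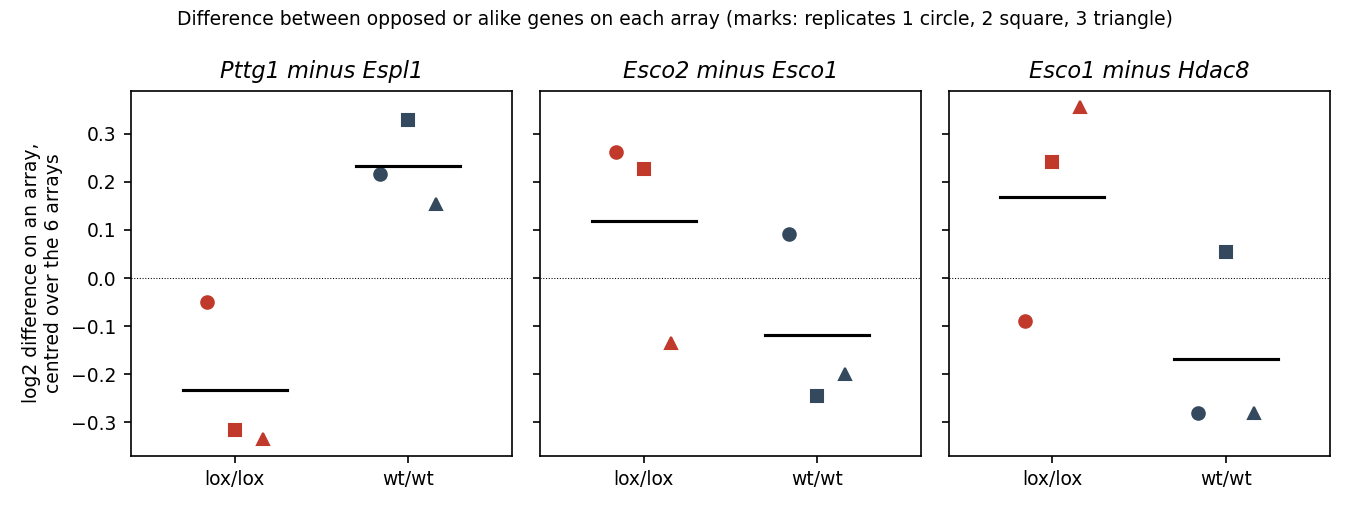
Difference of the log2 values of a pair of genes on each array, centred over the 6 arrays (vertical axis), for 3 lox/lox arrays (red, left) and 3 wt/wt arrays (dark, right), with a black line at each mean. Pttg1 minus Espl1 is lower on every lox/lox array, and the other pairs overlap.

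Most of the 7 genes were highest on the arrays that stood apart. In 5 of them (Esco1, Esco2, Cdca5, Espl1 and Sgo1) the highest lox/lox array was replicate 3 and the highest wt/wt array was replicate 2, as in 18.2% of all genes. That share includes dim genes and was not matched for brightness, while all 7 lay above the median of all values. These arrays also had the lowest medians of all values, 4.87 for lox/lox replicate 3 and 4.85 for wt/wt replicate 2. Whether the pattern is particular to the 7 genes was not tested. Both probe sets of Esco1 did so. Pttg1 and Hdac8 did not: among lox/lox arrays Pttg1 was highest in replicate 1, and among wt/wt arrays Hdac8 was highest in replicate 3. Centred on each gene's mean, Espl1 and Sgo1 were the most alike pair among the 7, with a root mean square difference of 0.068 on the log2 scale over the 6 arrays, and Esco2 and Pttg1 the least alike, at 0.378. Hdac8 and Pttg1, the pair lower in lox/lox cells, differed by 0.124. The measure was not scaled to the spread of each gene, so genes that vary little come out as alike. Cdca5, Espl1 and Sgo1 had the smallest ranges over the arrays, 0.105, 0.269 and 0.281. The change between genotypes enters the measure too, and Esco2 and Pttg1 changed in opposite directions.

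Likeness was measured in the same way against 10857 other genes above the median of all values. The nearest to Pttg1 were Tiparp, which encodes an ADP-ribosyltransferase (0.037), and Ptpmt1, which encodes a mitochondrial phosphatase (0.041). Their log2 changes were -0.45 for Tiparp and -0.46 for Ptpmt1. Nearest to Hdac8 were Ccnj, the gene of cyclin J (0.019), and Stard4, the gene of a sterol carrier (0.021), with log2 changes of -0.32 and -0.34. Esco2 was nearest to Slc31a2 and Lmtk2, Sgo1 to Rab21 and Pa2g4, Espl1 to Jarid2 and Pbrm1, Cdca5 to Dnajb1 and Cnnm2, and Esco1 to Micu2 and Tmem60, at 0.0094 to 0.064. With 6 arrays and this many candidates, near matches are found for any gene. The choice by pattern fixed how these genes differ between the genotypes, so distances and changes are descriptions, with no test.

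The 7 lists of genes that work with these were written with earlier results of these data known. Of their 113 measured genes 8 passed in limma. In lox/lox cells 7 of these were lower and 1, Stag2, was higher. That is 7.08%, against 6.16% of all genes, and the share called lower was 6.19%, against 3.61%. Without Rad21, the deleted gene, 7 of 112 passed (6.25%), 6 of them lower (5.36%). The count of 8 was 3 without lox/lox replicate 1, 2 without lox/lox replicate 2, and 4 without wt/wt replicate 2 or 3. The median log2 change was -0.10 over these genes and -0.008 over all genes. These shares and medians were not matched for brightness. Every measured list gene lay above the median of all values, while all genes include dim ones. With dim genes filtered out, 11 of the 113 list genes passed, 10 of them lower. In that setting 1425 of all 11400 genes passed, 820 of them lower.

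The partners of the acetyltransferases at the replication fork had 2 of 17 called lower, 0 higher and a median of -0.15. Over all genes, dim ones included, 3.61% were called lower and 2.55% higher. Chtf18, which encodes a subunit of the clamp loader that puts PCNA on DNA and aids cohesion, had 7.77, 7.76 and 7.81 in lox/lox cells, against 8.22, 8.18 and 8.08 in wt/wt cells. The lox/lox arrays lay close together and below all wt/wt arrays. Its log2 change of -0.38 (SE 0.08, adjusted p = 0.0140 in limma) lost its call without lox/lox replicate 1 (adjusted p = 0.05004) or 2 (0.0682), or without both arrays that stood apart (0.0690). Dscc1, a partner of Chtf18 in that clamp loader, just missed the threshold with a log2 change of -0.37 (adjusted p = 0.0503), and Chtf8, another partner, stood at 0.14 (adjusted p = 0.374). Pcna itself, the clamp to which Esco2 binds, had a log2 change of -0.12 (adjusted p = 0.428). The other called gene was Mcm4, a part of the replicative helicase, at -0.40 (adjusted p = 0.0204). The number called lower in this list was 0 without lox/lox replicate 1 or 2, and 1 without wt/wt replicate 3. Dscc1, Pcna and Chtf8 were named after their values were seen.

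Among 10 genes of the cohesin ring, its loader and its release, 1 was higher, Stag2, at a log2 change of 0.54, and 1 lower, Rad21. Of all genes 2.55% were called higher and 3.61% lower. The median of the 10 was 0.012 and turned to -0.0065 under median centring. Smc3, the subunit that Esco1, Esco2 and Hdac8 act on, had 9.80, 9.79 and 10.03 in lox/lox cells, against 10.02, 10.05 and 9.97 in wt/wt cells. These overlapped, with a log2 change of -0.14 (95% interval -0.33 to 0.05, adjusted p = 0.472 in limma). Wapl, the release factor that sororin opposes, had a log2 change of 0.02 (adjusted p = 0.938). Smc3 and Wapl were also named after their values were seen.

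The anaphase trigger, which comprises APC/C, its activators, cyclin B2 and Cdk1, had 0 of 20 called in limma, against 6.16% of all genes. Of the 20, 4 had an unadjusted p under 0.05, as had 18.0% of all genes, and the median was -0.04. Its smallest p were those of Ccnb2, the gene of cyclin B2, at -0.30 (adjusted p = 0.0647), and Anapc10, a subunit that helps APC/C bind its substrates, at -0.34 (adjusted p = 0.0926). Ccnb2 passed in limma in 4 of 15 alternatives. These were the fit without lox/lox replicate 3 (adjusted p = 0.0469), a filter on dim genes (0.0386), a trended and robust variance prior (0.0112) and array weights (0.0237). Cdc20, the activator with which APC/C marks securin for destruction, had 9.49, 9.39 and 9.45 in lox/lox cells, against 9.27, 9.28 and 9.23 in wt/wt cells. Here every lox/lox array was higher, and the log2 change of 0.18 did not pass (adjusted p = 0.214 in limma). Cdc20 was named after its values were seen.

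Genes of centromeric protection and prophase release had 0 of 17 called in limma, against 6.16% of all genes. Among them 1 had an unadjusted p under 0.05, against 18.0% of all genes, and the median was -0.13. Of the 17 changes 16 were below 0 (14 under quantile normalization or cyclic loess), as were 52.5% of all genes, dim ones included. The smallest p belonged to Ppp2r5d and Ppp2r1b, which encode subunits of PP2A, with log2 changes of -0.18 (adjusted p = 0.266) and -0.18 (adjusted p = 0.286). Sgo2a, the other shugoshin gene, had a log2 change of -0.17 (adjusted p = 0.587), named after its value was seen. The spindle checkpoint, which holds back Cdc20 until chromosomes are attached, had 0 of 11 called in limma (6.16% of all genes). It had 1 at an unadjusted p under 0.05 (18.0% of all genes) and a median of -0.07. Spc24 and Knl1, parts of the kinetochore, had its smallest p, with log2 changes of -0.19 (adjusted p = 0.240) and -0.18 (adjusted p = 0.431).

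Cell cycle lists stood beside these, since several of the 7 genes are periodic. The median of 20 genes of G2 and mitosis was -0.10, and 1 of the 20 passed, against 6.16% of all genes. This was Mybl2, which encodes a part of the complex that activates late cell cycle genes through the CHR, with 10.30, 10.26 and 10.44 in lox/lox cells, against 10.63, 10.71 and 10.65 in wt/wt cells. All lox/lox arrays were lower, by a log2 change of -0.33 (SE 0.08, adjusted p = 0.0364 in limma). The call of Mybl2 held in 1 of the 6 fits without 1 array, that without lox/lox replicate 3, with an adjusted p of up to 0.154 (without lox/lox replicate 2) in the others. Of 18 genes of G1/S 3 passed, all lower, with a median of -0.13, while 3.61% of all genes, dim ones included, were called lower. The 3 were Cdc45 at -0.37 (adjusted p = 0.0197), Chaf1b at -0.37 (0.0244) and Cdc6 at -0.30 (0.0458). The call of Cdc6 was lost in each of the 6 fits without 1 array (adjusted p of 0.0650 to 0.176), under quantile normalization (0.0905) and under cyclic loess (0.0754). The number called in this list was 0 without lox/lox replicate 2 or wt/wt replicate 2, 1 without lox/lox replicate 1 or wt/wt replicate 3, and 2 without either remaining array. Whether the change of Pttg1 followed from a different spread of cells over the cell cycle was not tested.

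**Figure D5:**
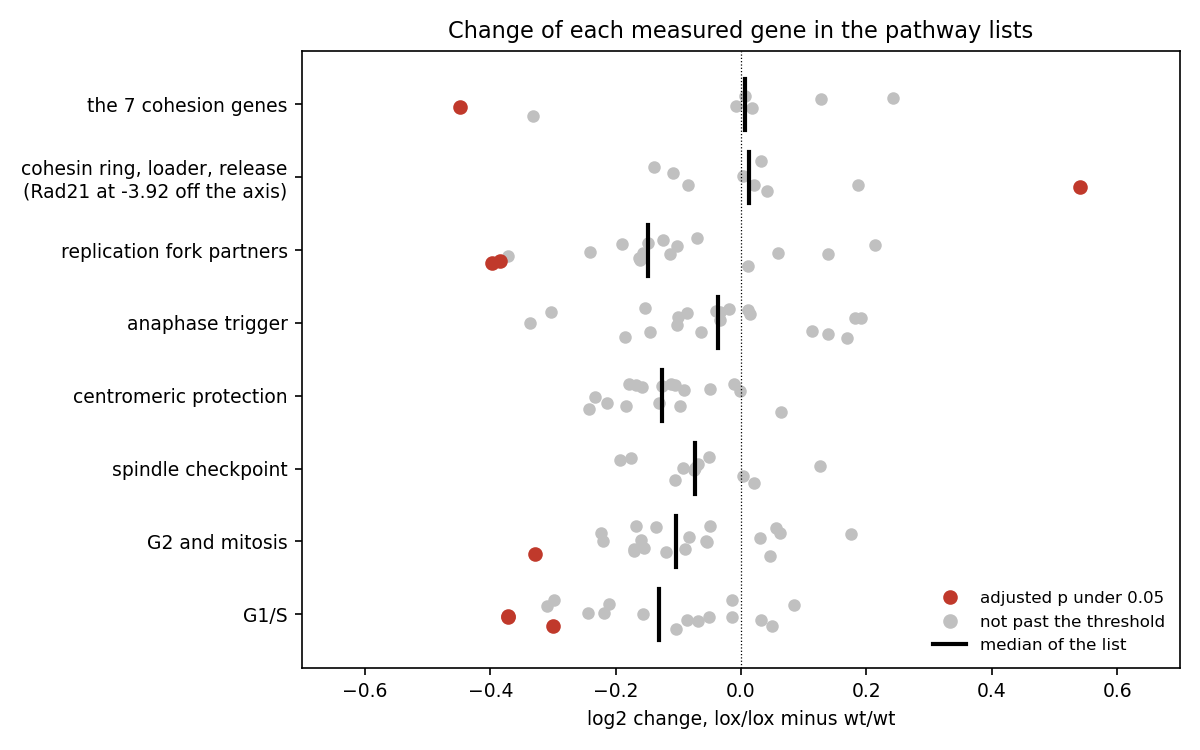
Log2 change in lox/lox minus wt/wt cells (horizontal axis) of each measured gene in the 7 cohesion genes (top) and the 7 pathway lists, red where the adjusted p in limma was under 0.05, with a black line at each median. The replication fork partners have the lowest median of the lists shown, at -0.15, Rad21 at -3.92 lies off the axis, and Cdc45 and Chaf1b overlap at -0.37.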

How the data were processed

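Mouse ES cell RNA was measured on 6 arrays, 3 lox/lox and 3 wt/wt, grouped by sample titles. Per the submitters' processing notes, the authors made the deposited log2 values with affy and RMA, whose versions, options and build were not given in the sources used here. RMA assumes like distributions between arrays, so an overall change of RNA per cell cannot be seen, and background compresses changes of weak genes. Probe sets with 1 symbol in the platform annotation (21789 of 35556) were kept, and each gene was represented by its brightest probe set, without a filter on dim genes. The fit used limma 3.58.1 (lmFit, then eBayes, lox/lox minus wt/wt) under R 4.3.3, with p-values adjusted by Benjamini-Hochberg over 19938 genes and calls under 0.05, and was tested on simulated data. The limma p-values set each change against the spread between 3 samples per genotype. In eBayes that spread is drawn towards the spread of all genes (6.14 prior and 4 residual degrees of freedom). The number of arrays limits the precision.

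The members and lists were chosen with earlier results of these data known. The text names all members, Rad21, the called genes of each list (otherwise the 2 with the smallest p) and the 2 genes nearest to each member. List genes and the cell type markers were matched by current symbol, and Ccnb1 was not analysed here. Pair differences were tested by exact permutation. Deviations of same-numbered arrays correlated at 0.10, -0.23 and -0.10, and the main fit did not pair them. The arrays that stood apart carry different numbers, so these correlations cannot decide whether same-numbered samples were handled together. Alternatives were 3 normalizations, a filter on dim genes, all probe sets, other variance settings, array weights, the replicate block, a stricter threshold and each array left out.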

Additional observations from a re-analysis of the deposited data

How the results depend on the processing

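The count of 1 called cohesion gene was the same under quantile normalization, median centring, cyclic loess, a trended and robust variance prior, all probe sets and the replicate block. With dim genes filtered out or with array weights it was 2 (Pttg1 and Hdac8). Calls among all genes rose in these settings too, to 1425 of 11400 and 1717 of 19938. The count of called cohesion genes was 0 at an adjusted p under 0.01, and 0 to 1 without each array in turn. Without both arrays that stood apart, chosen after seeing the data, it was 0 of 7, with 697 genes called in all and 3 in the pathway lists. Calls among all genes numbered 1228, 1523 with the trended and robust prior, 553 at an adjusted p under 0.01 and between 626 and 1132 without each array. Those in the pathway lists numbered 8, 14 with that prior and between 2 and 8 without each array. The replicate block gave 1 cohesion gene (Pttg1, adjusted p = 0.0432), 1086 genes in all and 6 in the lists. Directions held for 4 of the 7 genes. The other 3, with changes near 0, turned. Esco1 was at -0.012 under median centring, -0.027 on its second probe set, -0.040 with array weights and -0.060 without both arrays. Espl1 was at -0.0011, -0.026 and -0.016 under median centring, array weights and without both arrays. Cdca5 was at 0.027, 0.015 and 0.014 under quantile normalization, cyclic loess and without both arrays. Without each array, Esco1 ranged from -0.17 to 0.14, Espl1 from -0.047 to 0.057 and Cdca5 from -0.030 to 0.022. Pair differences kept their signs, at -0.56 to -0.42, 0.16 to 0.36 and 0.24 to 0.47 without each array. The causes were not tested. Of the 7 genes, Hdac8 and Esco1 lay nearest to 4.90, the median of all values, where background compresses changes.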
